A study of Mus musculus with 2 samples.

Results

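The POU domain factors are transcription factors that share a bipartite DNA-binding region, a POU-specific domain joined to a POU homeodomain, and that act in neurons, glia, sensory cells and the mesenchyme around the inner ear. Of the 10 members considered, 8 were represented by probe sets that named them alone, among 18194 genes represented in this way. The members were every such probe set for Pou2f2, Pou3f1, Pou3f2, Pou3f3, Pou3f4, Pou4f1, Pou4f3 and Pou6f1, which gave 17 probe sets. Pou2f1 and Pou4f2 were not analysed here.

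RNA came from otocysts, the epithelial vesicles that become the inner ear, dissected from mouse embryos at E10.5. All embryos were heterozygous for the Tg(ETAR-EGFP)14Imeg transgene, so that both populations carried it. Dissociated cells were sorted by fluorescence into an EGFP-positive and an EGFP-negative population, and 1 Affymetrix array was hybridised for each, called here the positive and the negative array. Per the labels, EGFP marks mainly the ventral and dorsomedial otocyst, while the dorsolateral otocyst lacks it. Both sorted populations are described there as epithelial. The regulatory sequence that drives EGFP and the number of embryos pooled are not given in the sources used here.

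POU proteins bind an octamer and related A- and T-rich sites, and they are grouped into classes by the sequence of the POU domain. Class III factors are known from neural progenitors and glia, and Pou3f4 also from the mesenchyme that forms the bony capsule of the inner ear. Class IV factors are known from sensory neurons and, for Pou4f3, from hair cells. Class II factors include a widely expressed member, Pou2f1, and the lymphocyte factor Pou2f2.

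The values are MAS5 signals, a linear intensity per probe set. Each array's 40th percentile, 12.4 for the negative and 10.4 for the positive array, served as a floor below which a signal was not read. The highest of 33 bacterial control probe sets without evident signal reached 9.0 and 12.3, so signals on the positive array between 10.4 and 12.3 are not separated from those controls. Ratios are log2 of EGFP-positive over EGFP-negative signal, with each signal raised to its floor, and a gene takes the probe set with the highest mean signal. With 1 array per population there was no replicate, so no test was made and every statement describes these 2 arrays. As a partial technical error, probe sets of the same gene were compared with each other, and the SD of their log2 ratios was 0.41 (950 genes) at mean signals under 50, 0.33 (2764 genes) from 50 to 200 and 0.25 (1926 genes) above 200. This SD holds no variation between embryos, sorts or hybridisations.

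Pou3f4 was 7.98-fold higher on the negative array. Pou4f1 was 2.24-fold higher on the positive array, a direction that turned only when ratios were centred on otic epithelium genes. Pou3f1 was 2.71-fold higher on the negative array. Of the 8 members, 7 rose above the floor in at least 1 array, and 1, Pou4f3, did not. Among those 7, 1 was higher by 2-fold or more on the positive array and 2 on the negative array. The floored ratios of the other 4 lay within 2-fold. Of these, Pou3f3 and Pou6f1 were above the floor on both arrays. The ratios of Pou2f2 and Pou3f2 are bounds with the positive array at the floor. The difference of Pou3f2 may be larger. For Pou2f2 the probe sets disagreed in direction, so neither a direction nor a size is given. Over all 13363 genes above the floor in at least 1 array, 2.9% were higher by 2-fold or more on the positive and 7.63% on the negative array. The median log2 ratio was -0.45 over the 7 members and 0.0032 over all genes.

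These counts depend on how the arrays are scaled. The background split of 388 genes higher on the positive and 1019 on the negative array became 503 and 822 under quantile normalization, 225 and 1442 with the hybridisation controls set to equality, and 18 and 11594 with the otic epithelium genes set to equality. The last 2 scalings shift every log2 ratio by -0.25 and -1.41. In a sorted population, fewer cells of a type and less RNA per cell cannot be told apart.

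**Figure D1:**
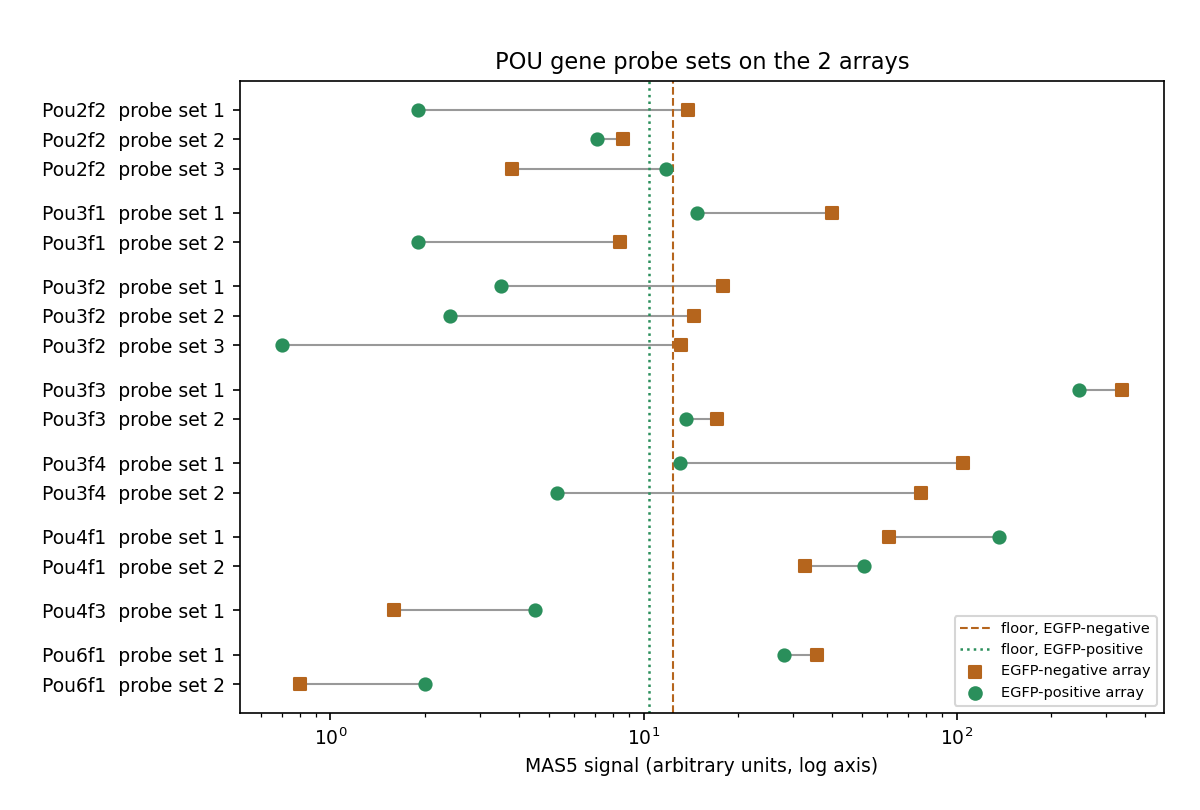
MAS5 signals (arbitrary units, log axis) of the 17 POU probe sets on the EGFP-negative array (squares) and the EGFP-positive array (circles), with each array's floor as a vertical line and probe sets of a gene ordered by mean signal. All 9 class III probe sets have the square to the right of the circle, but only 4 of them are above the floor on both arrays. Both Pou4f1 probe sets have the square to the left.

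Class III genes were represented by 9 probe sets for 4 genes. Of these, 4 were above the floor on both arrays, both of Pou3f3 and 1 each of Pou3f1 and Pou3f4, and all 4 had the higher signal on the negative array, after quantile normalization too. A further 4, all 3 of Pou3f2 and the second of Pou3f4, were above the floor on the negative array only, so that their direction is fixed by how they were selected. The second probe set of Pou3f1 was at the floor on both. Probe sets of a gene share its transcripts and do not count as separate genes. Over all genes above the floor in both arrays the median log2 ratio was 0.031, slightly on the side of the positive array. The share of all probe sets with the higher signal on the negative array was not computed. The direction of these 4 probe sets is therefore given without a background.

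Pou3f4 encodes a factor of the periotic mesenchyme and neural tube, and its loss causes X-linked deafness in people. Probe set 1422165_at had a signal of 104.6 on the negative and 13.1 on the positive array, a log2 ratio of -3.00. The EGFP-negative signal was far above the floor, and the EGFP-positive signal was just above the highest bacterial control of 12.3. The second probe set, 1422164_at, had 77.2 on the negative and 5.3 on the positive array, which is at least 6.28-fold higher on the negative array when set against the highest bacterial control. Thus both probe sets placed the transcript clearly above the floor on the negative array only or nearly only. The difference is large against the spread of 0.33 between probe sets of genes at this signal. Of 13363 genes, 121 had a lower ratio than Pou3f4, and among 3936 genes whose mean signal was within 2-fold of its own, 1.93% did. A floor at the 60th percentile gave a log2 ratio of -1.65, and a pseudocount of 16 in place of the floor gave -2.05.

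The 250 bases before the annotated start of Pou3f4, the member with the largest difference, are shown beside those of Pou4f1, the member that differed most in the other direction. Both are from RefSeq, build GRCm38.p6, at chrX:110814129-110814378 on the plus strand and chr14:104468000-104468249 on the minus strand. Capitals mark matches to CCAAT, a general promoter element, or to the E-box CAGCTG, a site type bound by basic helix-loop-helix factors, on either strand.
Pou3f4: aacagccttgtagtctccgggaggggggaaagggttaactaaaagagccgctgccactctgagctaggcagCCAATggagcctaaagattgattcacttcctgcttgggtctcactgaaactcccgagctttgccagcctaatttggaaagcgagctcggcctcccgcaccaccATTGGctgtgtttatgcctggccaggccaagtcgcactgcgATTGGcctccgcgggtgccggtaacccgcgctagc
Pou4f1: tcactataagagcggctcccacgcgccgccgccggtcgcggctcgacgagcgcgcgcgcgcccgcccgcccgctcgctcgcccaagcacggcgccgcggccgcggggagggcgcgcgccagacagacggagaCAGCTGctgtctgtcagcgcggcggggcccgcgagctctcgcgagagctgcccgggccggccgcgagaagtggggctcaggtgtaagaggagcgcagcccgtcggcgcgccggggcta
The Pou3f4 window held 3 CCAAT matches, the first base of each lying 179, 76 and 35 bases before the start, and no CAGCTG. The Pou4f1 window held 1 CAGCTG, 118 bases before the start, and no CCAAT. Over 32817 windows of the same length, 33.8% held CCAAT and 13% held CAGCTG. Neither window held the POU octamer ATGCAAAT (1.6% of all windows), the homeodomain motif TAATTA (4.85%) or TATAAA (12.4%), and no 2 of these 5 motifs overlapped in them. The GC content was 58% with 13 CpG sites for Pou3f4 and 78% with 47 CpG sites for Pou4f1, against medians of 52.4% and 6 over all windows. These matches describe the letters only, and the motifs were chosen with the signals known.

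Pou3f1 encodes a factor that acts in the onset of Schwann cell myelination. Probe set 1460038_at had a signal of 40.1 on the negative and 14.8 on the positive array, a log2 ratio of -1.44. The second probe set had 8.4 and 1.9, at the floor in both arrays, and so gives no ratio. The difference of the first is larger than the spread of 0.41 at such signals, yet 9.35% of 3400 genes of like mean signal had a lower ratio. It fell under 2-fold with the floor at the 60th percentile, where the log2 ratio was -0.27, and with a pseudocount of 16, where it was -0.87.

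Pou3f2 encodes a factor of neural progenitors and migrating cortical neurons. All 3 probe sets were above the floor on the negative array only. Their signals were 17.9, 14.5 and 13.2 on the negative array and 3.5, 2.4 and 0.7 on the positive array. Each EGFP-negative signal lay close above the floor of 12.4, so the transcript was barely read there and was not read on the positive array. The size of the gene's ratio rests on the limit taken for the positive array, with a log2 ratio of -0.78 at the floor of 10.4 and -0.54 at the highest bacterial control of 12.3. In the background, 7.12% of genes were above the floor on the negative array only. The ratio passed 2-fold with a lower floor, at the 20th percentile (-2.35 on the log2 scale), centred on hybridisation controls (-1.03) and centred on otic epithelium genes (-2.20).

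Pou3f3 encodes a factor of the forebrain, hindbrain and kidney tubule. Probe set 1435197_at had a signal of 337.6 on the negative and 246.5 on the positive array, 1.37-fold higher on the negative array. The second had 17.2 and 13.7, or 1.26-fold. A further probe set shared with the adjacent noncoding gene 2900092D14Rik had 52.9 and 40.2, or 1.32-fold. Unlike the other class III genes, Pou3f3 was thus above the floor in both arrays on both of its own probe sets. All 3 probe sets gave nearly the same small difference. The log2 ratio of -0.45 is larger than the spread of 0.25 at this signal, and 8.2% of 4048 genes of like mean signal had a lower ratio. It was within 2-fold in every setting tried except centring on otic epithelium genes, where it was -1.87.

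**Figure D2:**
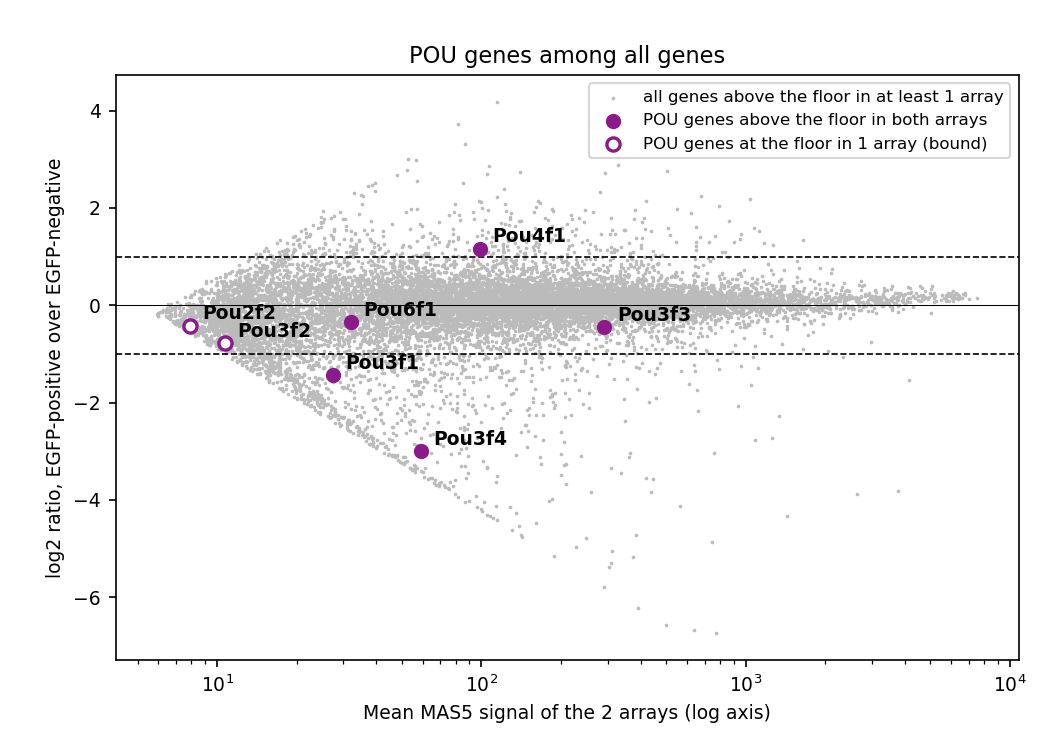
Log2 ratio of EGFP-positive over EGFP-negative signal against the mean MAS5 signal of the 2 arrays (log axis), for 13363 genes (grey) and the 7 POU genes with a ratio (purple, open where 1 array is at the floor), with dashed lines at 2-fold. Pou3f4 lies at -3.00 near the lower edge of the cloud, Pou4f1 at 1.16 just above the upper line, and Pou3f3 at -0.45 within the lines.

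In class IV, Pou4f1 encodes a factor required for the differentiation and survival of sensory neurons, including those of the cochleovestibular ganglion. Probe set 1429667_at had a signal of 60.9 on the negative and 136.5 on the positive array, a log2 ratio of 1.16. The second, 1429668_at, had 32.8 and 50.5, or 1.54-fold, under the 2-fold limit. Both probe sets were above the floor in both arrays and had the higher signal on the positive array. The log2 ratio of the first exceeds the spread of 0.33, and 265 of 13363 genes had a higher ratio. It was below 2-fold when both probe sets were averaged (0.89), with a pseudocount of 16 (0.99) and after centring on hybridisation controls (0.92). The otic epithelium genes had a median log2 ratio of 1.41, and centring on them left Pou4f1 at -0.25, below the median of those genes.

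Pou4f3 encodes a factor required for the maturation and survival of hair cells, and in the mouse it is known from later stages of the developing sensory patches. Its only probe set had a signal of 1.6 on the negative and 4.5 on the positive array. Both values lay under the floor and under the highest bacterial control, so the transcript was not read in either population and no fold is given. A floor at the 20th percentile lay under the EGFP-positive signal and gave a log2 ratio of 0.

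In class II, Pou2f2 encodes a factor of B lymphocytes that is also found in the nervous system. Its 3 probe sets had signals of 13.9, 8.6 and 3.8 on the negative array and 1.9, 7.1 and 11.8 on the positive array. The first was above the floor on the negative array only, the second in neither population and the third on the positive array only, where it was under the highest bacterial control. The probe sets therefore disagree in direction at the edge of detection. No fold is given for this gene, whose log2 ratio was -0.42 at the floor, -0.18 with the floor at the bacterial controls and 0.18 after quantile normalization. It passed 2-fold with the floor at the 20th percentile (-1.99) and centred on otic epithelium genes (-1.83).

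In class VI, Pou6f1 encodes a factor found mainly in the brain. Probe set 1452844_at had a signal of 35.9 on the negative and 28.2 on the positive array, 1.27-fold higher on the negative array. The log2 ratio of -0.35 is smaller than the spread of 0.41 at this signal, and 36.2% of 3443 genes of like mean signal had a lower ratio. Its second probe set had 0.8 and 2.0, at the floor in both arrays. The ratio was past 2-fold only when centred on otic epithelium genes (-1.76).

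Other POU genes and a POU cofactor were read beside the members, 4 genes in all. Pou5f1, the pluripotency factor, had signals of 7.9 on the negative and 6.9 on the positive array. Pou2f3, a factor of keratinocytes and tuft cells, had 10.4 and 1.1, and Pou2af1, the B-cell coactivator of class II factors, had 5.7 and 3.4. These 3 were at the floor in both arrays. Pou5f2, a factor known from the mouse testis, had 49.5 on the negative and 17.7 on the positive array, 2.80-fold higher on the negative array on its 1 probe set. This ratio was under 2-fold with the floor at the 60th percentile (-0.57 on the log2 scale) and with a pseudocount of 16 (-0.96).

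Genes of the cell types in which the POU factors act were examined beside them, as lists whose background is the 2.9% and 7.63% of all genes given above and whose medians keep bounds at their bound. For Pou3f4, the list was periotic mesenchyme. Of its 14 measured genes, 12 were higher by 2-fold or more on the negative array and 1 on the positive array, with a median log2 ratio of -3.54. The summed signal of the list was 6947 on the negative and 1243 on the positive array, and Tbx15, Foxc2 and Col1a1 were at the floor on the positive array. Col3a1, a fibrillar collagen gene, had a signal of 2733 on the negative and 135.5 on the positive array, and Col1a2, another, had 817.9 and 56.8. In the other direction, Six2, a homeobox gene of mesenchymal progenitors, had 100.7 on the negative and 390.5 on the positive array. Epha4, an ephrin receptor gene regulated by Pou3f4 in mouse otic mesenchyme and singled out after its values were seen, had 294.7 and 276.0, with 4 probe sets between -0.09 and 1.07 on the log2 scale. The ratio of -3.00 for Pou3f4 lay between this list's median and those of the leukocyte (-2.77) and hindbrain (-2.57) lists below. A ratio of this size was thus near the medians of several lists, and the part of mesenchyme in it was not tested. The ratio of Epha4 was far from the mesenchyme median, but it is 1 of 14 genes, of which 12 were higher by 2-fold or more on the negative array.

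The neural tube is the other tissue in which class III genes are known. Of 10 measured hindbrain and neural progenitor genes, 9 were higher by 2-fold or more on the negative array and none on the positive array, with a median log2 ratio of -2.57. Their summed signal was 2984 on the negative and 237.4 on the positive array, and Sox1, Zic2, Olig3, Hes5 and Pax6 were at the floor on the positive array. Zic1, a zinc finger gene of dorsal neural tissue and mesenchyme, had 1523.2 against 14.2, and Fabp7, a gene of radial glia, had 602.0 against 15.2. Markers of mesenchyme and of neural tissue were thus higher on the same array as Pou3f4 and Pou3f1, and their part in those differences was not tested. Pou3f2 is left out here because its direction was fixed by how its probe sets were selected. Pou3f3, at -0.45, differed far less than the median of either list.

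For glia, 5 of 8 measured neural crest and Schwann precursor genes were higher by 2-fold or more on the negative array and 2 on the positive array, with a median log2 ratio of -2.04. The median was -1.03 over genes above the floor in both arrays and -0.97 with a 60th percentile floor. The 2 were Erbb3, the neuregulin receptor gene, at 511.1 on the negative and 1405 on the positive array, and Sox10, a factor of crest, glia and otic epithelium, at 403.7 and 889.3. Ednrb, an endothelin receptor gene of crest, had 368.3 on the negative and 32.7 on the positive array, and Ets1, which is also endothelial, had 378.2 and 39.3. Foxd3 and Tfap2b were at the floor on the positive array. The summed signal of the list was 1946.5 on the negative and 2431 on the positive array, and without Erbb3 and Sox10 it was 1031.7 and 136.7. The part of these cells in the ratio of Pou3f1 was not tested.

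**Figure D3:**
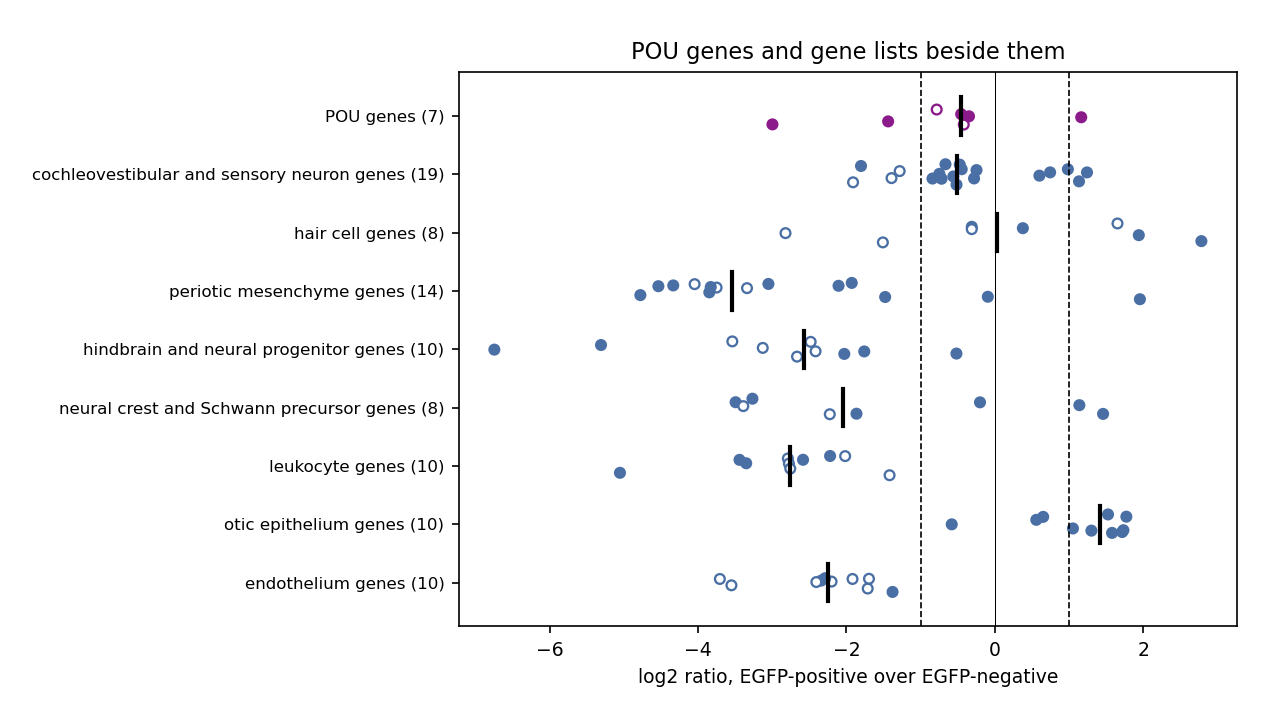
Log2 ratio of EGFP-positive over EGFP-negative signal for the POU genes (purple) and the genes of 8 lists (blue), 1 point per gene, open where 1 array is at the floor, with black bars at the medians, dashed lines at 2-fold and the number of genes with a ratio in parentheses. The POU median is -0.45, while the mesenchyme list lies at -3.54, the hindbrain list at -2.57 and the otic epithelium list at 1.41.

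For Pou4f1, the list was cochleovestibular and sensory neuron genes. Of 21 measured genes, 19 were above the floor in at least 1 array, with a median log2 ratio of -0.52. At least 2-fold higher on the positive array were 2, Shox2 at a log2 ratio of 1.24 and Neurog1, the proneural gene of the ganglion, at 1.13. The second Neurog1 probe set was at 0.46, under 2-fold. At least 2-fold higher on the negative array were 4, among them Gap43, a growth cone gene, with 396.5 on the negative and 113.6 on the positive array, and Neurod4, with 39.1 and 2.6. Neurod4, Prrxl1 and Prph were at the floor on the positive array only, and Runx3 and Eomes were at the floor on both arrays. The summed signal was 3850 on the negative and 4021 on the positive array, and without Neurod1, which had 723.9 and 1432.4, it was 3126 and 2588. By the probe set with the highest mean signal, Pou4f1 had a ratio close to those of Neurog1 and Shox2. It lay on the opposite side of zero from the list's median.

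For Pou4f3, the list was hair cell genes. Of 11 measured genes, 8 had a ratio, with 3 higher by 2-fold or more on the positive and 2 on the negative array and a median of 0.03. The median changed sign with the floor, to -0.31 at the 20th percentile, and was 1.16 over the genes above the floor in both arrays. Espn, an actin-bundling gene of stereocilia, had 13.3 on the negative and 91.6 on the positive array, and Myo7a, an unconventional myosin gene, had 77.2 and 296.3. Atoh1, the hair cell determination gene that is also expressed in the hindbrain rhombic lip, had 73.5 on the negative and 4.6 on the positive array. Barhl1, also a hindbrain gene, had 29.6 and 7.1. The summed signal was 296.7 on the negative and 535.2 on the positive array. Gfi1, regulated by Pou4f3 in mouse hair cells, and Otof and Cdh23 were at the floor in both arrays, as Pou4f3 was.

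For Pou2f2, all 10 leukocyte genes were higher by 2-fold or more on the negative array, with a median log2 ratio of -2.77. Their summed signal was 1506 on the negative and 129.4 on the positive array, and 5, Ptprc, Cd52, Fcer1g, Aif1 and Cx3cr1, were at the floor on the positive array. Csf1r, a macrophage receptor gene, had 607.1 against 18.3, and Coro1a, an actin regulator of leukocytes, had 256.8 against 42.8. All 10 endothelium genes were also higher by 2-fold or more on the negative array, with a median of -2.24, a summed signal of 686.4 against 81.6 and 7 genes at the floor on the positive array. Cldn5, a tight junction gene, had 135.7 against 2.2, and Emcn, a sialomucin gene, had 121.8 against 8.7. The leukocyte list holds no gene particular to B lymphocytes, and the B-cell coactivator gene Pou2af1 was at the floor in both arrays. Pou2f2 itself stayed at the edge of detection, and the part of leukocytes in its signal was not tested.

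The labelled epithelial identity was checked with 10 measured otic epithelium genes, all above the floor in both arrays. Of these, 7 were higher by 2-fold or more on the positive array and none on the negative array. Sox2, Tbx1 and Oc90 lay within 2-fold. Oc90 alone had the higher signal on the negative array, 1405.7 against 939.8. Eya1, a transcriptional coactivator gene of the placode, had 578.3 on the negative and 1665 on the positive array, and Epcam, an epithelial adhesion gene, had 538.6 and 1610. The summed signal was 4553 on the negative and 8669 on the positive array. Epithelial genes were thus read in both populations. The measured genes of the mesenchyme, hindbrain, leukocyte and endothelium lists had the higher signal in the EGFP-negative one, with the exception of Six2. This holds for the probe set with the highest mean signal. For Epha4 that difference was small, and its 4 probe sets ranged from -0.09 to 1.07.

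Genes nearest to Pou3f4 and Pou4f1 in the plane of the 2 log2 signals were listed, a likeness over 2 arrays only. For Pou3f4 they were Eng, Scarf2 and Fez1, at distances of 0.09, 0.10 and 0.16. For Pou4f1 they were Sel1l3, Cep152 and Crispld2, at 0.05, 0.05 and 0.05.

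**Figure D4:**
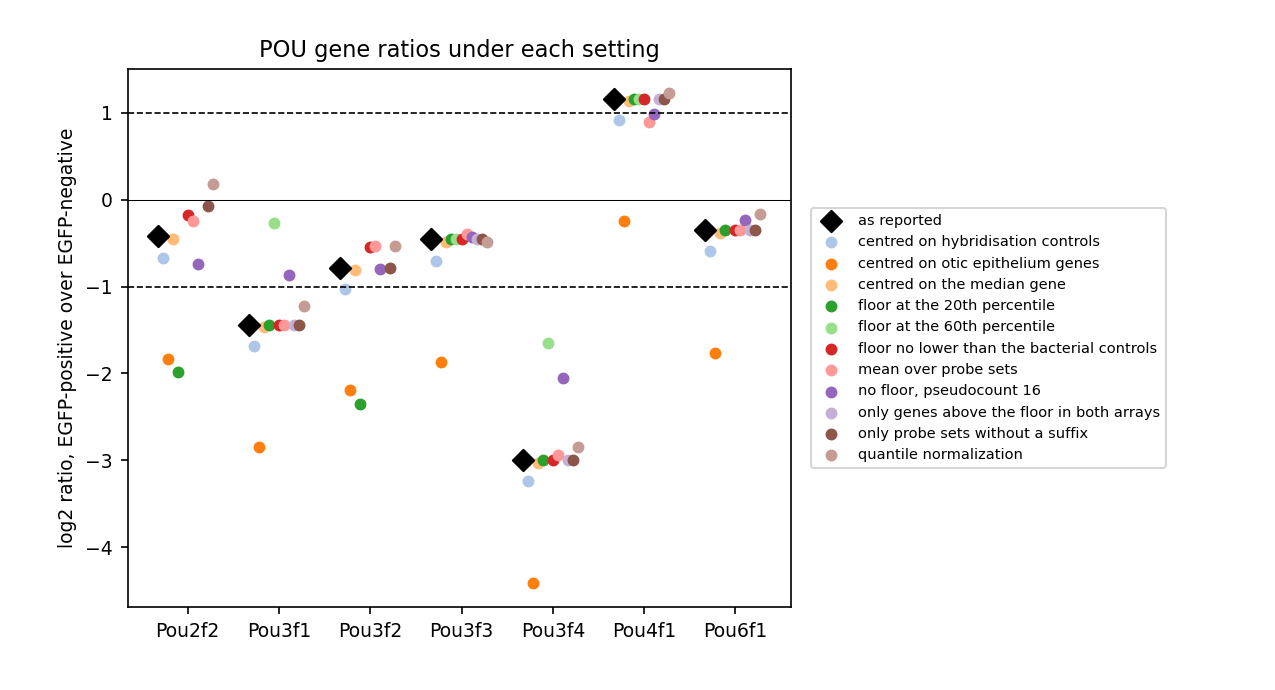
Log2 ratio of EGFP-positive over EGFP-negative signal of the 7 POU genes as reported (black diamonds) and under the 11 other settings (coloured circles, of which Pou2f2 and Pou3f2 have 9 and Pou6f1 10 because settings with no ratio give none), with dashed lines at 2-fold. Pou3f4 stays below the lower line in all 11, and Pou4f1 is above the upper line in 7.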

How the data were processed

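The authors deposited 1 MAS5 signal, a linear intensity, per probe set for 45101 probe sets on each of 2 arrays. The submitters' processing notes name MAS5 (5.0). The mean after trimming 2% at each end was 100.0 in both columns, so the arrays had been scaled to a common level. The scaling target and detection calls were not used here. The number of arrays limits the precision.

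Probe sets were named from the platform annotation, with symbols updated through the GRCm38.p6 RefSeq gene table. Of them 34958 named 1 gene, 932 several and 9211 none. Ratios, floors and lists were computed with Python 3.11.15, pandas 2.3.3 and numpy 2.4.6, and the procedure was tested on simulated data. The 9 lists hold 107 entries, and a further item is not reported here. The text names every member, and from each list up to 2 genes per direction with the highest mean signal past 2-fold. Genes at the floor and a few within 2-fold, among them Oc90, are named besides. Members and lists were chosen with earlier results of these data known. Promoter windows are from the RefSeq GRCm38.p6 table, which holds 6 of the 8 measured members. Results were recomputed under 11 other settings, 3 of them chosen after seeing the data.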

Additional observations from a re-analysis of the deposited data

How the results depend on the processing

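The count of POU genes higher by 2-fold or more on the positive array was 1 and became 0 with probe sets averaged, with a pseudocount of 16, and after centring on hybridisation controls or on otic epithelium genes. The count higher on the negative array was 2 and became 4 with the floor at the 20th percentile, 3 after centring on hybridisation controls, 1 with the floor at the 60th percentile or a pseudocount of 16, and 6 after centring on otic epithelium genes. Over all genes, the counts of 388 and 1019 became 711 and 1954 with the floor at the 20th percentile, 237 and 478 at the 60th, and 238 and 647 with a pseudocount of 16. They became 225 and 1442 centred on hybridisation controls and 18 and 11594 centred on otic epithelium genes. With genes above the floor in both arrays only, 632 were higher on the negative array. The log2 ratio of Pou4f1 changed sign, to -0.25, only with the last of these centrings. Pou3f4 kept its direction and passed 2-fold in all 11 settings, from -4.41 to -1.65. Pou3f1 passed in 9 of 11. Of 171 recomputed gene ratios and list medians, 121 moved by no more than the SD between probe sets. The 2 centrings on controls and epithelium, and a floor no lower than the bacterial controls, were chosen after seeing the data. No paired analysis was possible because each population has 1 array and the labels number no replicates. Signals near the floor, as for Pou2f2, Pou3f2 and Pou4f3, limit what these arrays can show.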
